A study of Rattus norvegicus with 6 samples.

Results

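The interleukin 1 family was described in metrial gland RNA of pregnant rats held in low oxygen. The 10 genes chosen by name were the ligands Il1a, Il1b, Il18 and Il33, the antagonist Il1rn, the receptors and receptor chains Il1r1, Il1r2, Il1rap and Il1rl1, and the processing protease Casp1. All 10 were on the array, with 16 of its 31042 probe sets, and every probe set annotated to 1 of these symbols was used, whatever its level. The series held 14217 named genes in all. In the hypoxia group, 3 arrays came from animals at 10.5% oxygen over gestation days 6.5 to 13.5, and in the ambient group 3 arrays came from animals at 21% oxygen. Tissue was taken when the exposure ended, and the sources used here give no strain, age of the dam or pooling. The metrial gland is the maternal tissue behind the placenta, rich in uterine natural killer cells, and the killer cell protease Gzmb averaged 14.27 ± 0.10 in hypoxia and 14.47 ± 0.05 in ambient (log2 level, SD, n = 3 each), near the top of the arrays.

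Interleukin 1 alpha and beta signal through the receptor Il1r1, which needs the accessory chain Il1rap, and lead to NF-kappaB activation and inflammatory gene expression. The pathway carries its own brakes. Il1rn encodes a secreted antagonist that occupies Il1r1 without signalling, and Il1r2 encodes a decoy receptor that binds the ligand and has no signalling domain. Interleukin 33 uses a related receptor, Il1rl1 (ST2), which exists in membrane and soluble forms. Interleukin 18 stimulates natural killer cells to make interferon gamma, and Casp1 cleaves the precursors of interleukins 1 beta and 18 into their active forms.

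Of the 16 probe sets, 2 were higher in hypoxia past an adjusted p of 0.05 (Il1b and Il1r2) and 2, both of Il1r1, were lower. Among all 31042 probe sets tested, 2.34% were called higher and 1.12% lower. The ligand Il1b and the decoy Il1r2 thus rose, while the signalling receptor Il1r1 fell on the 2 dimmer of its 3 probe sets. Its brightest probe set did not pass (limma adjusted p = 0.0860). With only the brightest probe set of each gene, 2 of the 10 genes were higher and 0 lower. Over all 14217 genes taken so, 3.11% were higher and 1.51% lower. The other 12 probe sets did not pass, 7 of them with an unadjusted p under 0.05. Unadjusted p-values of that size were common over all probe sets: Il33 (1389581_at), at a limma p of 0.0491, had an adjusted p of 0.257. Their share over all probe sets was not counted. Whether 7 of 12 lies above or near that share is therefore left unsaid. The groups did not overlap on 9 probe sets, 4 of them higher (Il1b, Il1r2 and 1 probe set each of Il1rl1 and Il33) and 5 lower (Il1rn, Il18 and all 3 of Il1r1). Over all probe sets 11.6% were higher and 13.7% lower without overlap, 25.3% in all. The median difference of the 16 probe sets was 0.047 log2 and their median absolute difference 0.36 log2, against -0.020 and 0.10 log2 over all probe sets tested. Since these are bulk samples, fewer cells of a type and less RNA per cell cannot be told apart.

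The sequences just upstream of the start sites of Il1b and Il1r1 are shown because these 2 genes had probe sets past the threshold in opposite directions. They are the 250 bases before the annotated start, 5′ to 3′ on the gene's strand, from RefSeq on build GRCr8. Of the 10 genes 9 matched that table, all but Il1r2. Capitals mark matches, on either strand, to TATAAA, to the hypoxia response cores ACGTG and GCGTG, to the PU.1 core GAGGAA or to the kappaB consensus.
Il1b, chr3:137036582-137036831, minus strand: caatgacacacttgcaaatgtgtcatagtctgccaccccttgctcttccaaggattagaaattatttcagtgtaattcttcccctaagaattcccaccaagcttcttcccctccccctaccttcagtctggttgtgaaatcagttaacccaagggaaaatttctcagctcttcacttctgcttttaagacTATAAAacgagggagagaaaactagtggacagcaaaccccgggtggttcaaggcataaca
Il1r1, chr9:50034133-50034382, plus strand: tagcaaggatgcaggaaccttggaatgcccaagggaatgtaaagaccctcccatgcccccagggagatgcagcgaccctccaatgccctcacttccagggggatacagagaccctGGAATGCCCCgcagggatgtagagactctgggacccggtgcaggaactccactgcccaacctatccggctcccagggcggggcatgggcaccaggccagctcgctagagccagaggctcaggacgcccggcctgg
The Il1b window was 44.0% G and C and held TATAAA at position -60, counting the base just before the start as -1. The Il1r1 window was 63.6% G and C, held no TATAAA, and held 1 match to the kappaB consensus on the opposite strand, at position -135. The median over all 33469 windows of this length was 51.2% G and C. TATAAA occurred in 12.9% of them, the kappaB consensus in 3.5%, ACGTG in 16.6%, GCGTG in 25.9% and GAGGAA in 23.3%. None of the 11 windows of the family held ACGTG, and GCGTG was found in that of Il18 and in both of Il1rap. The kappaB consensus was also found in both windows of Il1rap. TATAAA was also found in those of Il1a, Il1rl1 and Il1rn and in a window of Il33, and GAGGAA in those of Il1a and Casp1. No matches overlapped in the windows printed. A match is a description of the letters only.

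Among the ligands, Il1b had log2 levels of 7.16, 7.19 and 7.10 on the hypoxia arrays, against 6.56, 6.55 and 6.65 on the ambient arrays. The lowest hypoxia value lay well above the highest ambient value, and the spread within either group was small. Il1b rose by 0.57 log2 (SE 0.08, 95% interval 0.38 to 0.76), or 1.48-fold (limma adjusted p = 0.0113). The call was lost without ambient replicate 2 (0.55 log2, adjusted p = 0.0511) and held without any other 1 array, where the difference lay between 0.55 and 0.60 log2. With an offset of 64 added to the linear values the rise was 0.37 log2 (adjusted p = 0.0163).

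Il1a, the partner of Il1b that is active without cleavage, was dim. Its brighter probe set (1368592_at) read 5.35, 4.96 and 5.35 in hypoxia, against 5.52, 5.49 and 5.29 in ambient, with overlapping groups and a difference of -0.21 log2 (95% interval -0.50 to 0.07, limma adjusted p = 0.402). The other (1371170_a_at) did not exceed the highest bacterial control of the same array on any array, so it gave no usable level. The bacterial controls are probe sets for transcripts absent from rat, and the highest of them on any array was 5.003 log2.

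**Figure D1:**
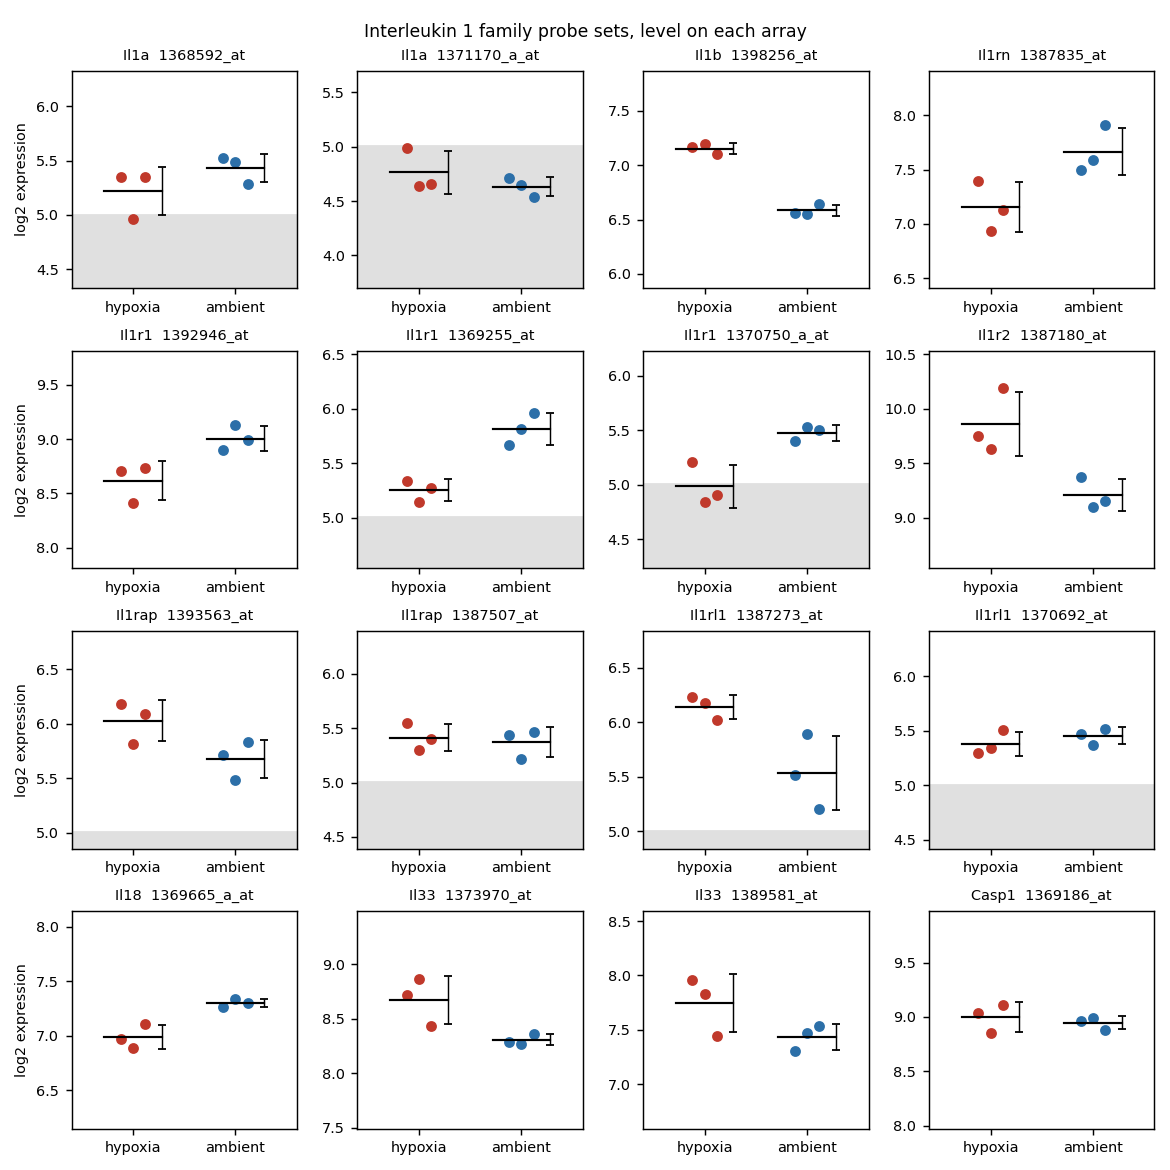
Log2 expression of each of the 16 probe sets on the 3 hypoxia arrays (red, left) and the 3 ambient arrays (blue, right). Horizontal bars are group means, brackets 1 SD, every panel spans the same range, and grey marks levels up to the highest bacterial control on any array (5.003). The hypoxia points of Il1b and Il1r2 all lie above the ambient points, and those of the 3 Il1r1 probe sets, Il1rn and Il18 all lie below.

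Il33, a nuclear cytokine released when cells are damaged, was read by 2 probe sets that pointed the same way without passing. The brighter (1373970_at) had levels of 8.72, 8.86 and 8.43 in hypoxia and 8.29, 8.27 and 8.36 in ambient, groups that did not overlap. Its difference was 0.36 log2 (SE 0.11, 95% interval 0.12 to 0.61, limma adjusted p = 0.113). The second (1389581_at) had 7.96, 7.83 and 7.45 in hypoxia and 7.31, 7.47 and 7.53 in ambient, where hypoxia replicate 3 fell inside the ambient range, and differed by 0.31 log2 (95% interval 0.0016 to 0.61, adjusted p = 0.257). On both, hypoxia replicate 3 was the lowest of its group, and without it the differences were 0.48 log2 (adjusted p = 0.0288, past the threshold) and 0.46 log2 (adjusted p = 0.0603).

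Il18 read 6.97, 6.89 and 7.11 in hypoxia, against 7.26, 7.34 and 7.30 in ambient. Every hypoxia value lay below every ambient value, with a difference of -0.31 log2 (SE 0.09, 95% interval -0.51 to -0.11). It did not pass (limma adjusted p = 0.0976, with 0.0730 to 0.236 over the alternatives).

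The antagonist Il1rn had levels of 7.39, 6.94 and 7.13 in hypoxia and 7.49, 7.59 and 7.91 in ambient. The groups did not overlap, though hypoxia replicate 1 and ambient replicate 1 lay close together. The difference of -0.51 log2 (SE 0.14, 95% interval -0.84 to -0.19) did not pass, with a limma adjusted p of 0.0941 and a range of 0.0671 to 0.252 over the alternatives.

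The signalling receptor Il1r1 was read by 3 probe sets, all lower in hypoxia. The brightest (1392946_at) stood at 8.71, 8.41 and 8.73 in hypoxia, against 8.90, 9.13 and 8.99 in ambient. Its difference of -0.38 log2 (SE 0.11, 95% interval -0.62 to -0.15) did not pass (limma adjusted p = 0.0860). The second (1369255_at) stood at 5.34, 5.14 and 5.27 in hypoxia and at 5.67, 5.82 and 5.96 in ambient, and fell by 0.56 log2 (SE 0.10, 95% interval -0.80 to -0.33, adjusted p = 0.0266).

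The dimmest Il1r1 probe set (1370750_a_at) stood at 5.21, 4.84 and 4.90 in hypoxia, above the bacterial controls on 2 of the 3 arrays, and at 5.40, 5.54 and 5.50 in ambient, above them on all 3. It fell by 0.49 log2 (SE 0.11, 95% interval -0.74 to -0.24, limma adjusted p = 0.0495). On hypoxia replicate 2 all 3 Il1r1 probe sets were at their lowest. The call at 1369255_at was lost without hypoxia replicate 1 (adjusted p = 0.0533), hypoxia replicate 2 (0.0786), ambient replicate 2 (0.0858) or ambient replicate 3 (0.103). That at 1370750_a_at was lost without any 1 array but hypoxia replicate 1 (up to 0.157), with quantile normalization (0.0614) and with no variance trend (0.0528). An offset of 64 shrank the 2 differences to -0.24 and -0.18 log2.

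The decoy receptor Il1r2 had log2 levels of 9.75, 9.63 and 10.19 in hypoxia, against 9.37, 9.10 and 9.16 in ambient. No hypoxia value reached down to the ambient range, and hypoxia replicate 3 was the highest. The rise of 0.65 log2 (SE 0.14, 95% interval 0.33 to 0.97), or 1.57-fold, passed (limma adjusted p = 0.0429). Il1r2 lost its call without hypoxia replicate 1 (adjusted p = 0.0897) or any 1 ambient array (0.0680, 0.130 and 0.144 without replicates 1, 2 and 3) and with no variance trend (0.0586). The difference stayed positive throughout, between 0.49 log2 without hypoxia replicate 3 and 0.76 log2 without hypoxia replicate 2.

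**Figure D2:**
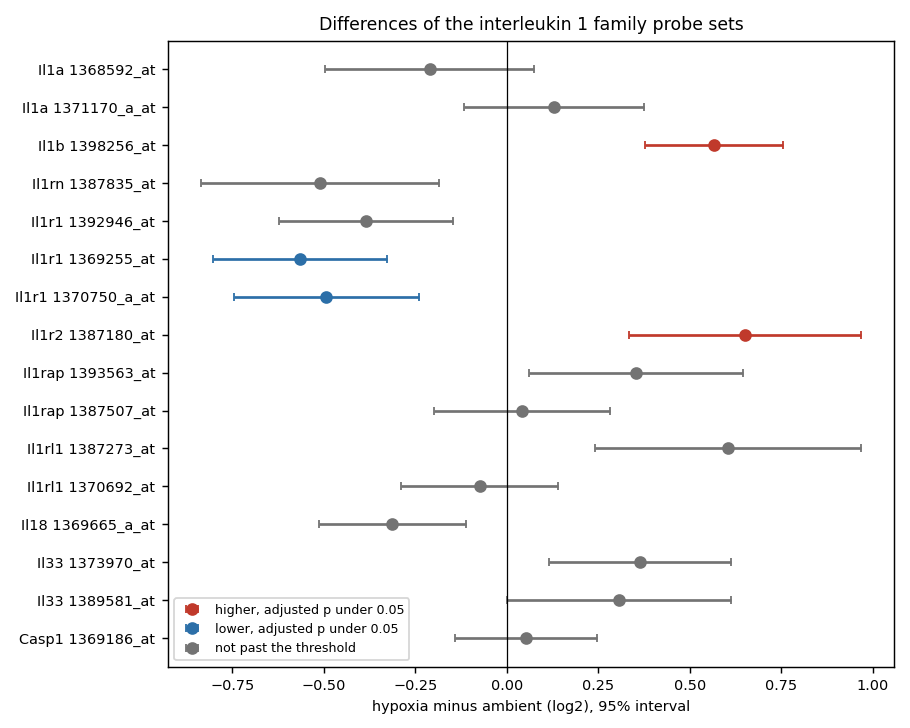
Difference between hypoxia and ambient (log2) for each probe set, with its 95% interval from limma; positive values are higher in hypoxia. Il1b (0.57) and Il1r2 (0.65) lie to the right in red, and 2 Il1r1 probe sets (-0.56 and -0.49) to the left in blue.

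The accessory chain Il1rap, shared by Il1r1 and Il1rl1, had 2 probe sets. The brighter (1393563_at) read 6.18, 5.81 and 6.09 in hypoxia and 5.71, 5.48 and 5.84 in ambient, groups that overlapped between hypoxia replicate 2 and ambient replicate 3. Its difference was 0.35 log2 (SE 0.13, 95% interval 0.059 to 0.64, limma adjusted p = 0.181). The other (1387507_at) averaged 5.41 ± 0.13 in hypoxia and 5.37 ± 0.14 in ambient (SD, n = 3 each), a difference of 0.041 log2 (95% interval -0.20 to 0.28).

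For the interleukin 33 receptor Il1rl1 the 2 probe sets disagreed. At 1387273_at the levels were 6.23, 6.17 and 6.02 in hypoxia, against 5.52, 5.89 and 5.21 in ambient. The hypoxia values were close together and all above the more scattered ambient values. The difference of 0.60 log2 (SE 0.16, 95% interval 0.24 to 0.97) did not pass (limma adjusted p = 0.0791) but passed without ambient replicate 2, the highest of its group (0.78 log2, adjusted p = 0.0411). With the offset of 64 it was 0.28 log2 at this probe set. At 1370692_at the levels averaged 5.38 ± 0.11 in hypoxia and 5.45 ± 0.08 in ambient (SD, n = 3 each), a difference of -0.074 log2 (95% interval -0.29 to 0.14, adjusted p = 0.713). Whether the 2 probe sets differ in their response was not tested.

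Casp1 read 9.03, 8.85 and 9.11 in hypoxia, against 8.96, 8.99 and 8.88 in ambient. The groups overlapped and the difference was 0.052 log2 (95% interval -0.14 to 0.25, limma adjusted p = 0.786).

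**Figure D3:**
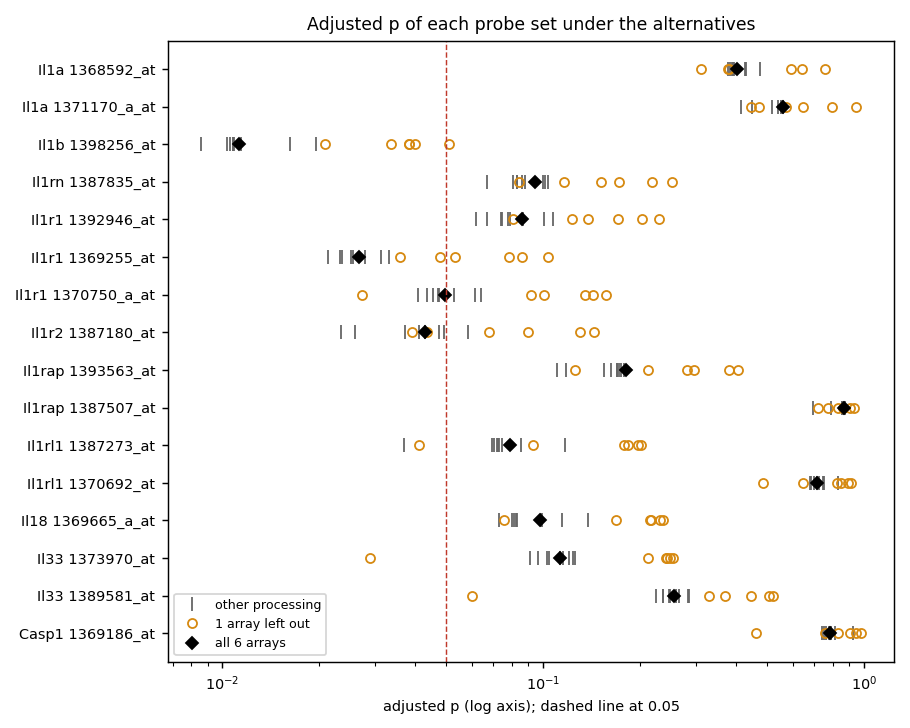
Adjusted p of each probe set on a log axis with all 6 arrays (diamonds), with 1 array left out (open circles) and under the other processing (ticks); the dashed line marks 0.05. Il1b lies left of the line in every case but 1 (adjusted p = 0.0511), and the points of Il1r2 and of the 2 called Il1r1 probe sets lie on both sides.

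As a description of likeness over the 6 arrays, which share the group difference, the genes whose levels followed Il1b most closely were Tollip (Pearson r = 0.996) and Ece1 (0.995). For Il1r1 (1369255_at) they were Cdca2 and Map7 (0.998 each), and for Il1r2 they were Hand1 (0.994) and Ret (0.990). They were picked from 16859 probe sets above the bacterial controls on at least 3 arrays.

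Calls in the rest of the pathway were counted list by list, to be read beside the share over all genes. With 1 probe set per gene, 3.11% of the 14217 genes were called higher and 1.51% lower. Of 5 other family ligands, receptors and binding proteins on the array (of 12 listed), 0 were called by limma and 0 had an unadjusted p under 0.05. Sigirr, an inhibitory receptor of the family, differed by -0.26 log2 (adjusted p = 0.284). Il36rn, an antagonist of interleukin 36, averaged 4.58 in hypoxia and 4.76 in ambient (adjusted p = 0.441) and did not exceed the bacterial controls on any hypoxia array. Of 11 inflammasome and processing genes on the array (of 15 listed), 1 fell and 0 rose (median -0.060 log2). Nlrp6 and P2rx7 did not exceed the bacterial controls on any array. The gene that fell was Pycard, the adaptor that brings Casp1 to inflammasomes. Pycard had levels of 8.74, 8.90 and 9.02 in hypoxia, against 9.34, 9.30 and 9.37 in ambient, and fell by 0.45 log2 (SE 0.09, adjusted p = 0.0291). The call held when hypoxia replicate 3 was omitted but not when another array was (highest adjusted p 0.111).

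Of 24 genes of receptor signalling on the array (of 25 listed), 0 were called by limma. The median difference was -8e-04 log2, with 12 higher and 12 lower. Tollip, an inhibitor of receptor signalling, was higher by 0.27 log2 (SE 0.06, adjusted p = 0.0504). It stood at 9.85, 9.86 and 9.84 in hypoxia and at 9.59, 9.56 and 9.61 in ambient, and it passed under 5 of the 15 alternatives (0.0370 to 0.0487). Myd88, the adaptor of the receptor, differed by -0.28 log2 (SE 0.07, adjusted p = 0.0741). At an unadjusted p under 0.05, 2 of the 24 were higher and 6 lower. Such p-values were common over all probe sets: Irak4, at an unadjusted limma p of 0.0496, had an adjusted p of 0.258. Irak4 did not exceed the bacterial controls on any array. The share of all genes at an unadjusted p under 0.05 was not counted, so these 2 counts are not read as a result about signalling.

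Genes known to respond to interleukin 1 moved in both directions. Of 28 on the list, 2 rose, 2 fell and 24 did not pass (median -0.036 log2). Of these 28, 3 did not exceed the bacterial controls on any array. Ptgs2, the inducible prostaglandin synthase, read 7.10, 6.09 and 6.41 in hypoxia, against 4.93, 5.25 and 4.50 in ambient, where 1 of 3 arrays exceeded the bacterial controls. It rose by 1.64 log2 (SE 0.26, limma adjusted p = 0.0140; 0.0578 without ambient replicate 3). With the offset of 64 the rise of Ptgs2 was 0.75 log2 (adjusted p = 0.0269). Cxcl2, a neutrophil chemokine, read 5.28, 5.36 and 5.58 in hypoxia and 4.78, 4.89 and 4.90 in ambient, also above the controls on 1 of 3 ambient arrays.

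Cxcl2 rose by 0.55 log2 (SE 0.10, adjusted p = 0.0263), and its adjusted p exceeded the threshold when hypoxia replicate 2 or an ambient array was omitted (up to 0.0870). With the offset of 64 the rise of Cxcl2 was 0.20 log2 (adjusted p = 0.0281). Pla2g2a, a secreted phospholipase, fell by 1.76 log2 (SE 0.17, adjusted p = 0.00254). Vcam1, an adhesion molecule named here after its values were seen, fell by 1.23 log2 (SE 0.24, adjusted p = 0.0306), a call lost without any 1 array but hypoxia replicate 3 (up to 0.118) and with a robust trend (0.0675). Il6, a classical product of interleukin 1 stimulation, stayed near the controls at 5.01 ± 0.15 in hypoxia and 5.04 ± 0.26 in ambient (SD, n = 3 each).

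Around the interleukin 33 branch, 12 genes of 15 listed were on the array, of which 1 rose, 1 fell and 10 did not pass (median -0.058 log2). Areg, an epidermal growth factor receptor ligand made by ST2-bearing immune cells and by other cells, read 7.49, 7.21 and 7.69 in hypoxia and 6.61, 6.80 and 6.68 in ambient. It rose by 0.77 log2 (SE 0.13, limma adjusted p = 0.0163), lost without hypoxia replicate 1, ambient replicate 1 or ambient replicate 3 (up to 0.0709). Ccl24, an eosinophil chemokine, did not exceed the bacterial controls in hypoxia and was at least 1.21-fold lower there (adjusted p = 0.0145; 0.0502 without ambient replicate 2), with means of 4.58 in hypoxia and 5.17 in ambient. Il4, Il5, Ccl11 and Il2ra did not exceed the controls on any array.

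**Figure D4:**
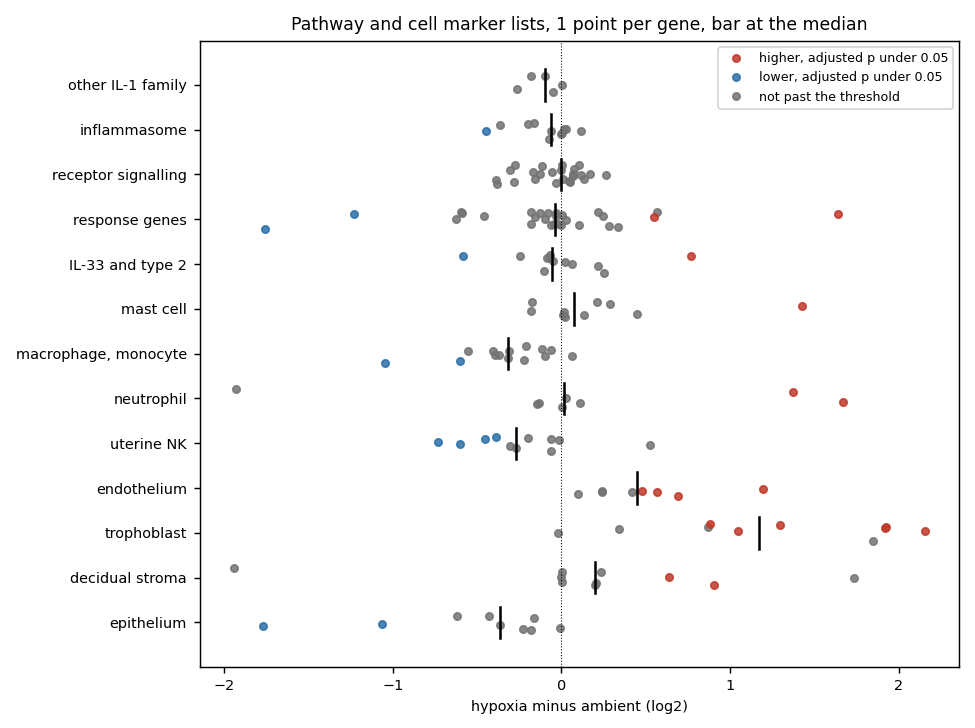
Difference between hypoxia and ambient (log2) of each gene in the pathway and cell marker lists, 1 point per gene; bars are list medians. Pathway lists are centred near 0, from -0.098 to -8e-04 log2. Cell marker medians run from -0.36 (epithelium), -0.31 (macrophage) and -0.27 (uterine NK) to 0.45 (endothelium) and 1.17 log2 (trophoblast).

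Markers of cells that make or answer interleukin 1 differed too. Of 14 macrophage and monocyte markers, 0 rose, 2 fell (Cd163 and Itgam) and 12 did not pass, 11 of these lower. Their median was -0.31 log2 and their summed level, as log2 of the summed linear values, was 12.74 to 12.91 in hypoxia and 12.99 to 13.15 in ambient. Such a sum, here and in the lists below, mostly reflects the brightest genes of a list. Cd86 was not above the controls on any array. Itgam lost its call without hypoxia replicate 1 or 2 or ambient replicate 2 or 3 (adjusted p up to 0.0965). Of 8 neutrophil markers on the array (of 13 listed), S100a8 and S100a9 rose, while Csf3r, Mmp8, Cxcr1, Cxcr2 and Camp exceeded the controls on 0 arrays. Lcn2, the remaining marker, read 8.82, 9.25 and 6.58 in hypoxia and 10.64, 9.35 and 10.44 in ambient, groups that did not overlap, and differed by -1.93 log2 (SE 0.62, limma adjusted p = 0.131) without passing. The neutrophil markers had summed levels of 10.07 to 10.45 in hypoxia and 9.97 to 10.96 in ambient. By their group means, the brightest of them were S100a9, which rose, and Lcn2, which was lower without passing.

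Of 10 mast cell markers on the array (of 11 listed), 1 (Kit) rose and 0 fell (median 0.076 log2). The summed levels were 10.33 to 11.16 in hypoxia and 10.36 to 10.93 in ambient, and Fcer1a and Hdc did not exceed the controls. Kit lost its call without hypoxia replicate 1, ambient replicate 2 or ambient replicate 3 (limma adjusted p up to 0.0826). Of 11 natural killer cell markers 4 fell (Cst7, Nkg7, Eomes and Il2rb, the last named after its values were seen), with 1 left without hypoxia replicate 1 or ambient replicate 3, and summed levels were 15.48 to 15.56 in hypoxia and 15.73 to 15.90 in ambient. Of 8 endothelial markers on the array (of 10 listed), 4 rose (Vwf, Tie1, Cldn5 and Tek, the last again named after its values were seen). Of these, 2 were left without hypoxia replicate 1 or 2 or ambient replicate 2 or 3. Tek also lost its call with quantile normalization (limma adjusted p = 0.0553) and with no variance trend (0.0624). Summed levels of the endothelial markers were 12.91 to 13.02 in hypoxia and 12.69 to 12.76 in ambient.

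Of 10 trophoblast markers 6 rose, among them Plac1, Krt7 and Krt8 (3 without hypoxia replicate 2), summed levels were 13.90 to 14.43 in hypoxia and 11.51 to 13.03 in ambient, and Gcm1 did not exceed the controls. Of 10 decidual stroma markers 2 rose (Hand2 and Bmp2). The call of Bmp2 was lost without hypoxia replicate 1 or 3 or ambient replicate 2 or 3, and with no variance trend (limma adjusted p = 0.0504). None of the 10 fell past the threshold and 8 did not pass, 6 of these higher and 2 lower (median 0.20 log2). Igfbp1, 1 of the 2, read 7.23, 5.90 and 5.28 in hypoxia and 8.70, 7.66 and 7.88 in ambient. It differed by -1.94 log2 (SE 0.45, limma adjusted p = 0.0518) without overlap of the groups. The decidual markers had summed levels of 15.08 to 15.47 in hypoxia and 14.84 to 14.96 in ambient. Of 9 epithelial markers on the array (of 10 listed), 2 fell (Epcam and Cdh1). Both calls were lost without hypoxia replicate 2 or 3 or any 1 ambient array. With a robust trend both were lost as well (limma adjusted p = 0.100 for Epcam and 0.060 for Cdh1). Cdh1 also lost its call with no variance trend (0.061) and with array weights (0.065). The epithelial markers had summed levels of 9.23 to 9.80 in hypoxia and 9.93 to 10.36 in ambient, and Cldn4 did not exceed the controls. For beta-actin, 1 of the 2 controls examined with probe sets at both ends of the transcript, the 3' level exceeded the 5' level by 0.58, 0.77 and 0.66 log2 in hypoxia and by 0.53, 0.54 and 0.41 log2 in ambient. These groups did not overlap, with every hypoxia array above every ambient array. For Gapdh, the other, the same difference was -0.040, 0.057 and -0.0054 log2 in hypoxia and -0.046, -0.0077 and -0.047 log2 in ambient, groups that overlapped. The part of cell makeup or of RNA integrity in the differences of Il1b, Il1r2 and Il1r1 was not tested.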

How the data were processed

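Metrial gland RNA was measured on 6 single-channel Affymetrix rat arrays, 3 per group by their titles. The deposited table gives 1 log2 value for each probe set on each array, a scale read from the numbers themselves (2.98 to 14.90). MAS5 and Affymetrix Expression Console are named per the submitters' processing notes. How background, summarization and scaling were handled is not given in the sources used here. Array medians lay between 6.44 and 6.47, so a change of most genes at once would be hidden, and low signals may be compressed. Precision is limited by the number of arrays.

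Of 31099 probe sets, 57 controls were left out and 31042 tested with no filter. The platform annotation gave 20826 probe sets 1 symbol, 436 several and 9780 none. The RefSeq table of GRCr8 held 20758 of the 20826 and changed 0. No probe set with several symbols held a member. For the lists, the probe set with the highest mean stood for a gene. The groups were compared with limma 3.58.1 in R 4.3.3 (lmFit, eBayes with a variance trend, group as the only term), two-sided, Benjamini-Hochberg adjusted over all probe sets, threshold 0.05. Differences are hypoxia minus ambient. Background was the highest of 27 Bacillus control probe sets per array. The bacterial hybridization spikes, which read high on every array, were not used for it. The code was tested on simulated data.

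Alternatives were quantile normalization, median centring, leaving out the 40% lowest means or probe sets not above background, no or robust trend, array weights, an offset of 64, a replicate block and leaving out each array. The text names all members, called genes of each list (3 at most, others said or counted) or 2 where none passed, and genes most like a called member. Members and lists were chosen with earlier results of these data known. Nothing in the labels says that the replicates came from different animals. The p-values therefore reflect only how these samples vary, and that variation may be technical.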

Additional observations from a re-analysis of the deposited data

How the results depend on the processing

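The 16 probe sets gave 233 comparisons with an alternative, of which 209 kept direction and side of the threshold, 18 lost a call, 3 gained one and 3 changed sign. The sign changes were of differences near 0. Casp1 was at -0.0048 log2 without hypoxia replicate 3 (range -0.0048 to 0.126 with 1 array left out), and Il1rap (1387507_at) at -0.0265 without hypoxia replicate 1 and -0.0365 without ambient replicate 2 (range -0.0365 to 0.101). Il1b was called in 14 of 15 alternatives and Il1r2 in 10 of 15. The 2 higher probe sets, of 2 genes, became 1 with no variance trend, 3 with the replicate block and 1 to 3 with 1 array left out. The 3 without hypoxia replicate 3 included Il33 (1373970_at), and the 1 without ambient replicate 2 was Il1rl1 (1387273_at), where neither Il1b nor Il1r2 passed. The 2 lower probe sets, all of Il1r1, became 1 with quantile normalization, no variance trend or the replicate block, 0 to 1 with 1 array left out, and 0 without the 40% lowest means, since both are then not tested. The 1 lower gene became 0 there, and 0 to 1 with 1 array left out. In the other lists the 18 higher genes became 11 to 17 and the 12 lower genes 4 to 10 with 1 array left out. Over all probe sets 726 were higher and 347 lower, against 870 and 556 with the replicate block, 576 and 249 with no variance trend, and 257 to 708 and 53 to 368 with 1 array left out. Deviations from the group means of same-numbered arrays correlated by -0.026, 0.058 and 0.033, and not every array correlated best with its own number. With 3 arrays per group these values cannot tell whether the numbers pair the arrays. With the block, Il1rl1 (1387273_at) passed (adjusted p = 0.0368) and Il1r1 (1370750_a_at) did not (0.0639). Levels near the bacterial controls limit what can be said of Il1a and the dim Il1r1 probe sets.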
